A study of Homo sapiens with 6 samples.

Results

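The untreated state of IMR32 cells was described from 3 RNA sequencing libraries, those labelled with the solvent DMSO for 24 h. They are 3 of the 6 libraries of the series, and were chosen by their treatment label alone. The other 3 libraries came from the same line treated with 20 µM sAKZ692, a compound that the series' design text calls an NRF2 activator, and none of their values is used here. IMR32 is an established human neuroblastoma line with an amplified MYCN gene, bought from ATCC and grown in DMEM with serum. All 3 libraries were thus from 1 line, with DMSO at a concentration that the labels do not give. Whether the 3 replicates were grown as separate cultures is not stated, so an SD here is the spread between libraries and may be technical only.

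Neuroblastoma arises from the sympathoadrenal branch of the neural crest, the embryonic cells that also form sympathetic neurons and the adrenal medulla. Its adrenergic form is held by a set of transcription factors that includes HAND2 and GATA3, and its mesenchymal form shows genes of fibroblast-like cells. MYCN, a relative of MYC, drives growth, ribosome production and the cell cycle, and its amplification marks an aggressive subset of tumours.

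Levels are given in TPM (a transcript abundance scaled to a fixed total), which corrects for transcript length and so allows genes to be set beside each other within a library. The deposited table listed 11351 genes, none at 0 in any DMSO library. They summed to 61.7%, 61.9% and 61.8% of the full TPM scale in replicates 1, 2 and 3. Any gene that the table lacks was not analysed. Read counts cannot be got back from TPM, so sequencing depth is unknown and no counting interval is given.

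Over the 3 libraries, 8862 genes (78.1% of those listed) had a mean of at least 1 TPM, 5924 (52.2%) at least 10 TPM, 1111 (9.79%) at least 100 TPM and 93 (0.819%) at least 1000 TPM. The same thresholds were met in every library by 8591, 5744, 1065 and 88 genes. The median gene had a mean of 11.3 TPM, with quartiles at 1.45 and 37.6 TPM. The 10 most abundant genes carried 7.70% ± 0.0585 of the listed TPM, the top 100 carried 32.3% ± 0.424 and the top 1000 carried 68.3% ± 0.420 (SD, n = 3).

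**Figure D1:**
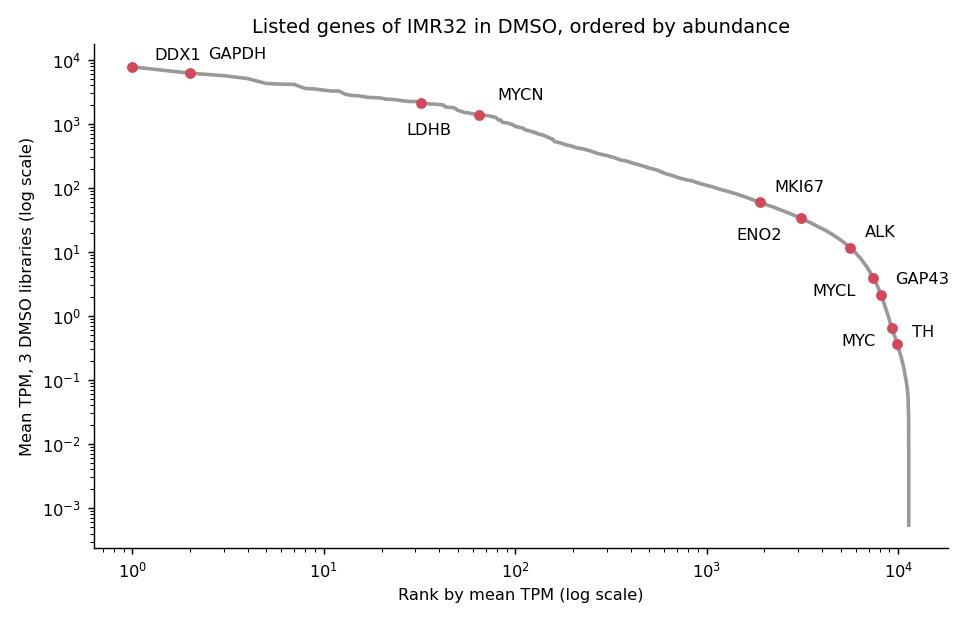
Mean TPM of the 11351 listed genes over the 3 DMSO libraries (y, log scale) against their rank by mean TPM (x, log scale), with named genes marked. DDX1 stands first at 7736 TPM, MYCN at rank 65 with 1389 TPM, and 5924 genes lie at or above 10 TPM.

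The most abundant listed transcript in these cells was DDX1, an RNA helicase gene next to MYCN. DDX1 had 7714, 7907 and 7586 TPM in replicates 1, 2 and 3, a mean of 7736 ± 162 TPM. GAPDH, the glycolytic enzyme often used as a housekeeping control, came next with 6171, 6224 and 6109 TPM, a mean of 6168 ± 57.5 TPM. DDX1 was above GAPDH in all 3 libraries, and the ratio of DDX1 to GAPDH was 1.25 ± 0.0148.

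The other genes among the top 25 were mostly parts of the translation apparatus. EEF1A1, which delivers aminoacyl-tRNA to the ribosome, averaged 5637 TPM. The ribosomal proteins RPS2, RPLP0 and RPS27 averaged 5083, 4159 and 3346 TPM. RPL27 averaged 4259.7 ± 245 TPM, and RPL19, RPL4, RPLP1, RPL37, RPS24 and RPL6 lay between 2322 and 2772 TPM. RACK1, a scaffold on the small ribosomal subunit, averaged 2569 TPM, and PABPC1, which binds poly(A) tails, 2424 TPM. Outside translation stood the nucleolar chaperone NPM1 at 3244 TPM and PTMA, a small acidic chromatin protein, at 3559 TPM. The cytoskeletal genes TUBA1B (an alpha tubulin), TMSB10 and TMSB4X (thymosins, which bind actin monomers) averaged 4121, 3499.5 and 2877 TPM. GNAS, the stimulatory G protein subunit, had 3255 TPM, the chaperone HSP90AA1 2405 TPM and the iron store subunit FTH1 2363 TPM. MTRNR2L12, a nuclear gene that resembles part of a mitochondrial ribosomal RNA, was listed at 2673 TPM. Of its 50-base windows 34.1% also occur in other genes, so reads of this length cannot always be told apart there.

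MYCN itself stood at rank 65. MYCN had 1390.0, 1430.4 and 1347 TPM in the 3 libraries, a mean of 1389 ± 41.9 TPM. Its neighbours on chromosome 2, taken in RefSeq's gene order on GRCh38.p14, split sharply by position. Toward the end of the short arm, the nearest neighbour of MYCN is DDX1, which ran at 5.57 ± 0.0557 times the MYCN level.

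NBAS, which acts in transport from Golgi to endoplasmic reticulum and in nonsense-mediated decay, comes next on that side with 827, 893 and 883 TPM, a mean of 868 ± 35.9 TPM and rank 108. FAM84A, now called LRATD1, lies beyond NBAS and had 1177, 1215 and 1114 TPM, a mean of 1169 ± 50.9 TPM and rank 81. These 4 adjacent genes were all within the top 108 of 11351 in the table. The next genes outward, TRIB2, LPIN1, GREB1 and E2F6, had means of 58.5, 30.1, 21.6 and 68.7 TPM.

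On the other side of MYCN the level dropped at the first gene. FAM49A, now called CYRIA, had 1.80, 1.80 and 1.79 TPM and rank 8309. VSNL1, GEN1 and KCNS3, farther out, had 1.66, 18.6 and 4.10 TPM. Of the 17 protein-coding genes looked up here, 5 were not analysed. DDX1 and NBAS are known from other tumours to be carried along in some MYCN amplicons. DNA copy number was not measured in these libraries, so its part in these levels was not tested. None of the 50-base windows of DDX1, MYCN, NBAS or FAM84A occurred in another gene.

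**Figure D2:**
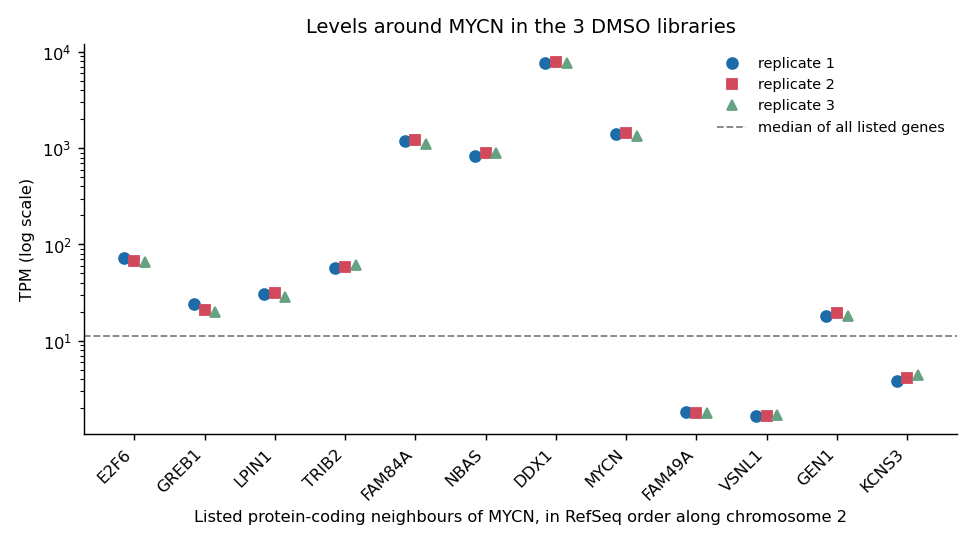
TPM (y, log scale) of the listed genes around MYCN in chromosomal order (x), with 1 point for each of the 3 DMSO libraries and a dashed line at the median of all listed genes. FAM84A, NBAS, DDX1 and MYCN have means between 868 and 7736 TPM, and the genes on either side have means of 68.7 TPM or less.

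The 250 bases before the start of DDX1 and of MYCN are shown because these neighbours are the top gene and the defining oncogene of the line. They are RefSeq sequences on GRCh38.p14, plus strand, 5′ to 3′, at chr2:15591618-15591867 for DDX1 and chr2:15940300-15940549 for MYCN. Capitals mark matches to any of 5 motifs searched on both strands. They are CACGTG, which is the E-box that MYC proteins bind, GGGCGG, known as the GC box that SP1 binds, the core CGGAAG bound by ETS factors, the TATA box as TATAAA, and the CCAAT box. 
DDX1: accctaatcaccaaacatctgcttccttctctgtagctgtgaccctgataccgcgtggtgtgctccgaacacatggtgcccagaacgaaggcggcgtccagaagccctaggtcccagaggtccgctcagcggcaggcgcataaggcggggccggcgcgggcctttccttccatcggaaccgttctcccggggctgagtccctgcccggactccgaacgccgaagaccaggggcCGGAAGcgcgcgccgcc
MYCN: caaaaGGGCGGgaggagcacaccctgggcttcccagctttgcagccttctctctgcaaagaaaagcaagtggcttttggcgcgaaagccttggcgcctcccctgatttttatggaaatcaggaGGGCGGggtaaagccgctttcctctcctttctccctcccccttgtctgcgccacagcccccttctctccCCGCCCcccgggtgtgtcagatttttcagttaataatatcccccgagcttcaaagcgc
DDX1 had 1 match, to CGGAAG, and MYCN had 3 matches to GGGCGG or its reverse complement. Neither stretch held CACGTG. A match is a string of letters, not a shown binding site.

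MYCN was nearly the only MYC family transcript. MYCL had 3.59, 4.47 and 3.69 TPM and MYC 0.656, 0.705 and 0.604 TPM, so that MYCN carried 99.7% ± 0.0292 of the family's TPM. The ratio of MYCN to MYCL was 357 ± 34.3. Of 12 genes fixed for the wider MYC network, 10 were listed. Of these 7 (70%) had at least 10 TPM, against 52.2% of all listed genes. MLX, the partner of the glucose-sensing MondoA (MLXIP), averaged 122 ± 4.22 TPM, and MLXIP itself 30.7 ± 3.53 TPM. The MAX-binding repressors MXD3, MXD4 and MXI1 lay close together at 33.6, 32.8 and 31.8 TPM, and MNT at 18 TPM. MGA, a further MAX partner, had 0.329 TPM, and MAX was not analysed here.

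Transcription factors of the adrenergic form stood high in these cells. Of 29 genes on the noradrenergic list, 21 were listed and 16 of them (76.2%) had at least 10 TPM, against 52.2% of all listed genes. Their median was 24.1 TPM, against 11.3 TPM over all listed genes, and 43.0 against 19.4 TPM when genes below 1 TPM are left out. HAND2, a factor of sympathetic neuron development, had 451, 469 and 472 TPM, a mean of 464 ± 11.0 TPM. GATA3, a zinc finger factor of sympathetic neurons, had 275, 282 and 258 TPM. MEIS1, a homeobox cofactor, had 456, 421 and 391 TPM. HAND2 and MEIS1 overlapped, and both were above GATA3 in every library.

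Other members stood lower. SATB1, a chromatin organizer, averaged 180.1 TPM, SOX11, a factor of immature neurons, 116 TPM, TBX2 82.3 TPM and INSM1, a neuroendocrine zinc finger factor, 54.5 TPM. HAND1 had 12.8 TPM. At the low end were TBX20 at 0.844, LMO1 at 0.382, LMO3 at 0.140 and INSM2 at 0.123 TPM. PHOX2A, GATA2, ISL1 and TFAP2B were not analysed here.

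The genes that make and handle catecholamines did not run at one level. Of 16 on this list 12 were listed, 6 of them (50%) at 10 TPM or more, close to the 52.2% of all listed genes. Their median was 12 TPM, against 11.3 TPM over all listed genes. TH, the rate-limiting enzyme of catecholamine synthesis, had 0.231, 0.186 and 0.682 TPM, below 1 TPM in each library. DDC, the decarboxylase of the next step, had 20.2, 20.6 and 21.5 TPM. The makers and recyclers of tetrahydrobiopterin, the cofactor of TH, were present: GCH1 averaged 14.9, SPR 47.9 and QDPR 63.2 TPM.

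SLC6A2, the noradrenaline transporter of the cell surface, averaged 31.1 ± 3.11 TPM. SLC18A2, which loads monoamines into vesicles, had 0.511, 0.289 and 0.0813 TPM. SLC18A3, which loads acetylcholine, had 30.4, 28.6 and 29.3 TPM. Thus the vesicular transporter for acetylcholine was the higher of these in all 3 libraries. The other gene of the vesicular monoamine transporter family was not analysed here, so monoamine loading is described by SLC18A2 alone. ACHE, which breaks acetylcholine down, was low at 0.129, 0.130 and 0.794 TPM. PNMT, which makes adrenaline, had 1.67 TPM. DBH was not analysed here.

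Among surface and growth factor receptors, 17 of 26 were listed. Of these 9 (52.9%) had at least 10 TPM, close to the 52.2% of all listed genes. GFRA2, the neurturin coreceptor, led with 364, 379 and 325 TPM. RET, the kinase that GFRA2 works with, had only 0.266, 0.196 and 0.174 TPM. The ganglionic nicotinic receptor subunits CHRNA3 and CHRNB4 averaged 141 ± 9.53 and 68.3 ± 1.29 TPM, and GPC2, a cell-surface glypican, 101 ± 10.7 TPM.

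ALK, the receptor kinase mutated in part of neuroblastomas, had 13, 12.4 and 9.57 TPM. This placed ALK near the median of all listed genes, and its relative LTK was at 0.249 TPM. Of the ganglioside enzymes, B4GALNT1 averaged 35.4 TPM and ST8SIA1, the GD3 synthase, 1.54 TPM. CXCR4, a chemokine receptor, averaged 23.0 ± 1.24 TPM and its ligand CXCL12 17.3 ± 2.38 TPM.

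Markers of other cell types were checked against the label. Of 26 mesenchymal and stromal markers 10 were listed, with a median of 3.54 TPM and summed levels between 1004 and 1047 TPM. Without the 3 members below 1 TPM the median is 25.9 TPM, against 19.4 TPM over all listed genes of at least 1 TPM, so its side of the overall median depends on that filter. VIM, the filament vimentin, had 669, 687 and 647 TPM, TWIST1, a neural crest and mesenchymal factor, a mean of 253 ± 4.51 TPM, and THY1, also found on neurons, 67.3 ± 2.98 TPM. FN1, the matrix protein fibronectin, averaged 25.9 TPM, and the other 6 listed markers had means of 4.44 TPM or less, down to WWTR1 at 0.621 and DCN at 0.289 TPM. VIM is also made by immature neurons. Factors tied to the mesenchymal form ran both ways, with TWIST1 high and WWTR1 and RUNX1, at 0.669 TPM, below 1 TPM. Which cell state these levels reflect was not tested.

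The epithelial markers KRT8, EPCAM and CDH1 had 0.386, 0.370 and 0.267 TPM, summing to between 0.659 and 1.53 TPM across libraries. The endothelial markers KDR and PECAM1 had 0.102 and 0.0917 TPM. The blood markers CD68, PTPRC and CD14 had 2.37, 0.575 and 0.212 TPM and summed to between 2.54 and 4.05 TPM. The Schwann and glial list had 3 listed members, none at 10 TPM, with a summed level between 2.91 and 3.24 TPM. Since these are bulk libraries, few cells of a type and little RNA per cell cannot be told apart. Set against the label, 16 of 21 listed noradrenergic factors had at least 10 TPM and 4 were below 1 TPM. The mesenchymal list had 4 of 10 (40%) at 10 TPM or more, against 52.2% of all listed genes, with VIM, TWIST1 and THY1 highest. The listed markers of epithelium, endothelium and blood had means of 2.37 TPM or less.

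**Figure D3:**
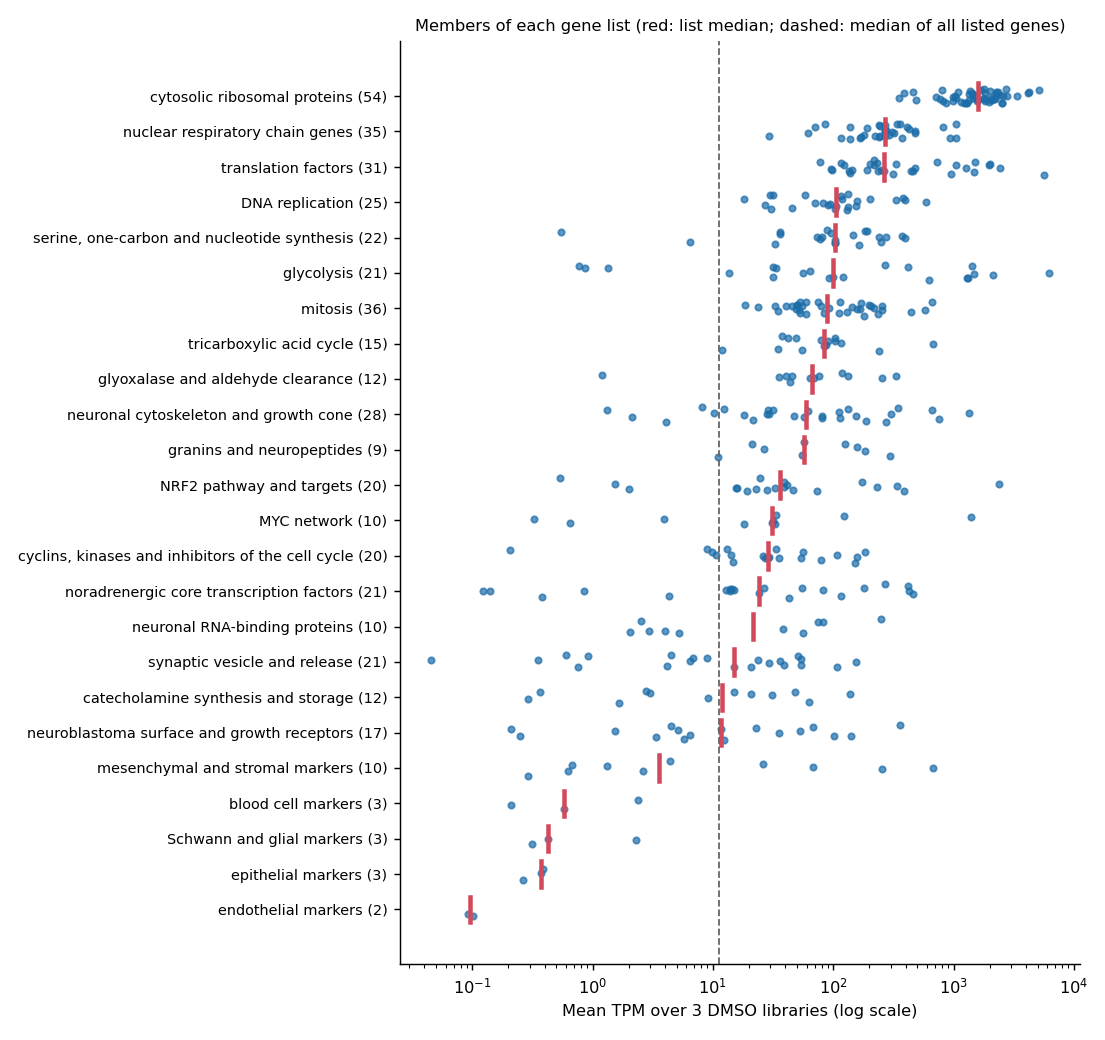
Mean TPM of each listed member (points, log scale) of the 24 gene lists, with the list's median, beside the median of all 11351 listed genes at 11.3 TPM. Medians of 19 lists lie above that line, from cytosolic ribosomal proteins at 1584 TPM down, and those of the epithelial and endothelial markers lie below 1 TPM.

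The listed genes of DNA replication all stood above the median of all listed genes, 11.3 TPM. Of 40 DNA replication genes 25 were listed, every one at 10 TPM or more, against 52.2% of all listed genes. Their median was 105 TPM, and 14 of them had at least 100 TPM, against 9.79% of all listed genes. Subunits of the replicative helicase differed among themselves, since MCM7 had 588, 604 and 589 TPM and MCM2 160.0, 160.4 and 153 TPM. MCM4 lay between them at 379 ± 25.1 TPM. The sliding clamp PCNA averaged 332 ± 8.25 TPM, and the thymidylate enzymes TYMS and DUT 395 ± 9.98 and 202 ± 4.75 TPM. The lowest listed members were GINS4 at 18.2, the primase subunit PRIM2 at 27.3 and the polymerase POLA1 at 29.9 TPM.

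Of 46 mitosis genes 36 were listed, with a median of 88.0 TPM. Again all stood at 10 TPM or more, against 52.2% of all listed genes. UBE2S and UBE2C, which attach ubiquitin for the anaphase-promoting complex, led with 666 ± 19.1 and 583 ± 12.7 TPM. CKS1B, a CDK-binding protein, averaged 444 TPM, the cyclin CCNB1 255 TPM, the passenger protein BIRC5 (survivin) 254 TPM and the checkpoint protein BUB3 235 TPM. MKI67, the proliferation antigen Ki-67, had 62.6, 63.1 and 51.5 TPM, lower in replicate 3. The lowest were TTK at 32.7, SMC2 at 23.6 and CDC25C at 18.5 TPM.

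Among cyclins, kinases and inhibitors, 20 of 26 were listed. Of these 17 (85%) had at least 10 TPM, against 52.2% of all listed genes. CCND1 (cyclin D1) had 188, 192 and 174 TPM, CDK2 averaged 157 ± 9.43 TPM and CDK6 56.4 ± 4.2 TPM. E2F1, the S-phase transcription factor, averaged 152 ± 5.66 TPM. The inhibitor CDKN1A (p21) averaged 53.7 ± 1.96 TPM. CDKN1B (p27) had 79.8 TPM and CDKN2A 35.3 TPM, while the neighbouring inhibitor gene CDKN2B had 0.206 TPM. MDM4, a relative of the ubiquitin ligase MDM2, and CDKN2D had 8.91 and 9.82 TPM. Each library is a mean over cells at all stages of the cycle, which cannot be told apart here.

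Neuronal structure genes were also abundant. Of 33 neuronal cytoskeleton and growth cone genes 28 were listed, with a median of 59.4 TPM. At 10 TPM or more stood 24 of them (85.7%), against 52.2% of all listed genes. The neuronal alpha tubulin TUBA1A had 1333, 1346 and 1325 TPM. UCHL1, a neuronal deubiquitinase, averaged 756 ± 12.1 TPM, and the membrane-linked actin regulators MARCKSL1 and BASP1 averaged 666 ± 26.8 and 344 ± 10.6 TPM. CRMP1, a semaphorin signalling protein, had 304 ± 2.29 TPM, and STMN3, a microtubule destabilizer, 273 ± 2.15 TPM.

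Filament genes and the lowest members of the list ranged widely. NEFM and NEFL, the neurofilament subunits, averaged 28.2 ± 1.56 and 12.5 ± 1.09 TPM. INA, the internexin filament of early neurons, averaged 115 ± 4.42 TPM, and NES, the progenitor filament nestin, 62.1 ± 2.56 TPM. PRPH, the peripheral neuron filament, had 8.1, 8.0 and 8.06 TPM. VIM held 74.8% ± 0.0210 of the TPM of these 6 intermediate filaments together, and the ratio of VIM to NEFM was 23.8 ± 1.92. GAP43, a growth cone protein, had only 1.89, 2.45 and 2.02 TPM, KIF5A, an axonal motor, 4.11 TPM and STMN4 1.33 TPM. STMN1 and STMN2 were not analysed here.

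Of 16 genes on the neuronal RNA-binding list 10 were listed, 5 of them (50%) at 10 TPM or more. This is close to the 52.2% of all listed genes. The 10 include NSG2, at 5.24 TPM, which acts in vesicle trafficking and is not known as an RNA-binding protein. ELAVL4 (HuD), which stabilizes neuronal mRNAs, had 257, 257 and 235 TPM, against 68.8, 63.5 and 60.9 TPM for the ubiquitous ELAVL1. The splicing factors RBFOX2 and RBFOX3 (the NeuN antigen) averaged 81.9 ± 7.78 and 55.9 ± 6.83 TPM, MSI2 75.1 TPM and CELF3 38.1 TPM. NOVA2, CELF4 and CELF5 had 2.94, 2.55 and 2.03 TPM.

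The release machinery was spread more widely. Of 33 synaptic vesicle genes 21 were listed, and 11 had at least 10 TPM, which is 52.4% and close to the 52.2% of all listed genes. CPLX2 and CPLX1, the complexins that clamp vesicle fusion, averaged 154 ± 8.74 and 50.9 ± 2.23 TPM. NSF, which takes SNARE complexes apart, averaged 108 TPM, the calcium sensor SYT1 54.4 TPM, and the vesicle membrane proteins SYP and SV2A 54.3 and 39.3 TPM. SYN3 had 0.598 TPM and SV2C 0.0455 TPM.

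Of 18 granin and neuropeptide genes 9 were listed, with a median of 57.6 TPM. Each stood at 10 TPM or more, against 52.2% of all listed genes. CHGA (chromogranin A), the main granule protein, had 291, 323 and 271 TPM and held 73.7% ± 1.70 of the TPM of the 4 listed granins. SCG3 averaged 57.6, CHGB 26.3 and SCG2 21.1 TPM, and the ratio of CHGA to CHGB was 11.2 ± 1.34. The neuropeptide genes GAL (galanin) and ADCYAP1 (PACAP) were steady, with 178, 189 and 180.1 TPM for GAL and 159, 156 and 161 TPM for ADCYAP1. NPY averaged 11.1 ± 0.682 TPM. PCSK1N and CPE, which act in prohormone processing, had 124 and 55.5 TPM.

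Glycolysis carried 2.54% ± 0.0207 of the listed TPM in 21 of 29 fixed genes, with a median of 99.6 TPM. Of these genes 6 exceeded 1000 TPM, a level that 0.819% of all listed genes reached. The listed genes of the upper steps were modest. Of 11 facilitative glucose transporters 4 were listed, and SLC2A3 was not analysed here, so uptake as a whole is not described. The glucose transporter SLC2A1 had 30.6, 33.4 and 30.8 TPM, and SLC2A8, SLC2A6 and SLC2A11 averaged 16.6, 13.7 and 3.07 TPM. HK1 averaged 99.6 ± 1.98 TPM and held 98.7% ± 0.304 of the hexokinase TPM listed, over HK3 at 0.772 TPM. HK2 was not analysed here. GPI, the isomerase, averaged 267 ± 10.0 TPM.

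The 3 phosphofructokinase genes, all listed, shared the step. PFKM, the muscle form, had 98.6, 93.7 and 85.3 TPM, PFKP, the platelet form, 64.1, 62.5 and 64.0 TPM and PFKL, the liver form, 59.9, 54.7 and 54.8 TPM. Their shares were 43.5% ± 1.5, 29.9% ± 1.33 and 26.6% ± 0.544, and each neighbouring pair was apart in every library. PFKFB3, which makes the activator of phosphofructokinase, averaged 33.9 TPM, over PFKFB1 at 0.471 TPM. ALDOC, the brain aldolase, averaged 13.6 TPM, and ALDOA was not analysed here.

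The leading listed genes of the lower steps were more abundant. TPI1 averaged 1491 ± 50.7 TPM, PGK1 629 ± 14.7 TPM, PGAM1 416 ± 12.3 TPM and PKM 1322 ± 22.6 TPM. GAPDH ran at 9.80 ± 0.180 times PGK1, the next enzyme of the pathway, and GAPDHS, the sperm form, had 1.35 TPM. ENO1 had 1289, 1322 and 1295 TPM and held 95.2% ± 0.432 of the enolase TPM. ENO2, the neuron-specific enolase used as a neuroblastoma serum marker, had 32.5, 30.2 and 37.1 TPM, and ENO3, the muscle form, 34.2, 28.8 and 32.4 TPM. ENO2 and ENO3 overlapped, with a ratio of 1.05 ± 0.0970.

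LDHB, the lactate dehydrogenase subunit of heart, was above LDHA, the muscle subunit, in each library. LDHB had 2060.1, 2118 and 2192 TPM, and LDHA had 1436, 1446 and 1347 TPM. The ratio of LDHB to LDHA was 1.51 ± 0.104, between 1.43 and 1.63, and LDHB held 60.1% ± 1.62 of the family's TPM. LDHA had its lowest value and LDHB its highest in replicate 3. Of the 50-base windows of LDHB 29.4% also occur in another annotated gene, nearly all of them in 1 other annotated locus, against 4.03% of those of LDHA. SLC16A1, a lactate transporter, averaged 120.4 ± 5.70 TPM and held 97.2% ± 0.143 of its family's TPM. SLC16A3, the transporter of strongly glycolytic cells, had 0.870 TPM, and SLC16A7 2.56 TPM.

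**Figure D4:**
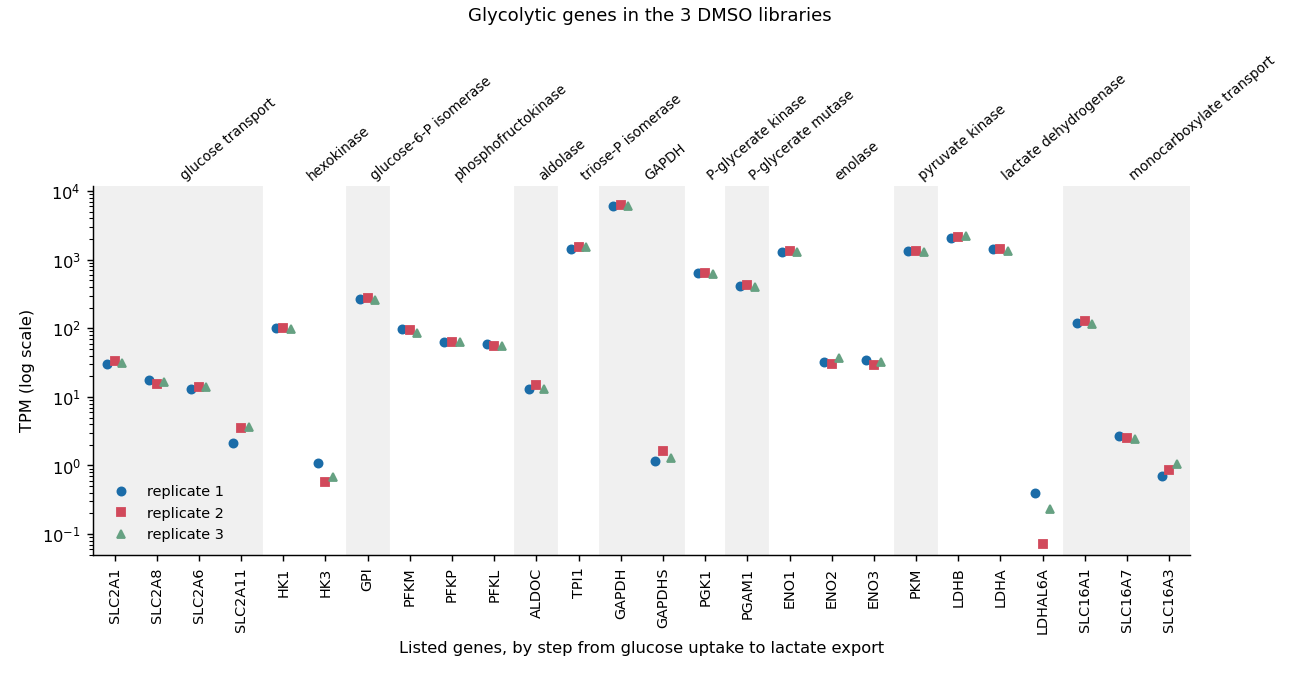
TPM (log scale) of the listed glycolytic genes in pathway order from glucose transport to lactate transport, with points for the 3 DMSO libraries. PGAM1, the lowest of the leading genes from TPI1 onward to LDHB, averages 416 TPM, while GPI, the highest of the genes before aldolase, averages 267 TPM.

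The 250 bases before the start of GAPDH, LDHA and LDHB are shown because these were the most abundant gene of the pathway and the 2 subunits that share its last step. They are RefSeq sequences on GRCh38.p14, each 5′ to 3′ on its gene's strand, at chr12:6535014-6535263 (plus strand) for GAPDH, chr11:18394313-18394562 (plus strand, the first of 2 RefSeq starts) for LDHA and chr12:21657843-21658092 (minus strand) for LDHB. Capitals mark matches to the same 5 motifs. 
GAPDH: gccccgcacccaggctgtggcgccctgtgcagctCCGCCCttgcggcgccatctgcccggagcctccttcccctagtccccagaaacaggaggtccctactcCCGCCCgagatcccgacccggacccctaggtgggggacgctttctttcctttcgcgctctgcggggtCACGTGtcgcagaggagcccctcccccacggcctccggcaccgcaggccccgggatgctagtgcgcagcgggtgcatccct
LDHA: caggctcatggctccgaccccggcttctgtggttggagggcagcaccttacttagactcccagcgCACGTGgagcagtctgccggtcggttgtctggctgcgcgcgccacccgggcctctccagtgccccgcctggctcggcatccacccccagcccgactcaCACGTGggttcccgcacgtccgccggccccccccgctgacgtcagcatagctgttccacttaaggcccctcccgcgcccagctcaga
LDHB: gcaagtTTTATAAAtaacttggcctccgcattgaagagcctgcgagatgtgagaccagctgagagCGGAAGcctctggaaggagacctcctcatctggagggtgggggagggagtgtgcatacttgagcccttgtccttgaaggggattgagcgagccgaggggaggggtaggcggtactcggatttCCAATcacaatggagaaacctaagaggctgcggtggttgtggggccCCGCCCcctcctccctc
LDHA held 2 matches to CACGTG, GAPDH held 1 beside 2 to the GC box, and LDHB held none. LDHB had 2 overlapping matches to TATAAA, on opposite strands, and 1 match each to the ETS core, the CCAAT box and the GC box.

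Across the table, promoter windows of 300 bases (250 before the start and 50 after it) were available for 73.9% of listed genes, too few to describe all of them. Coverage passed 80% for genes of 100 TPM or more (82.5%), for the 93 of 1000 TPM or more among them (80.6%, 75 windows) and for those of 10 to 100 TPM (82.6%). CACGTG was in 12.5% of the windows of the genes of 100 TPM or more and in 11.2% of those of 10 to 100 TPM. It was in 7.43% of 27305 RefSeq windows, the first of each gene. CGGAAG was in 41.5%, 37.0% and 19.9%, GGGCGG in 71.2%, 72.9% and 44.6%, CCAAT in 42.1%, 37.0% and 35.7%, and TATAAA in 6.65%, 3.90% and 12%. The median G+C content was 64.7%, 66% and 58.3% in the same order. The 8386 listed genes that had a window held CACGTG in 10.1%, CGGAAG in 30.9%, GGGCGG in 67.9% and TATAAA in 5.84%. Their median G+C content was 65%, and they do not stand for all listed genes. On each of these measures the genes of 100 TPM or more were nearer to this set, which includes them, than to the RefSeq windows. Among the 75 windows of genes of 1000 TPM or more, CACGTG was in 8.0%, TATAAA in 9.33%, CCAAT in 41.3%, GGGCGG in 65.3% and CGGAAG in 48.0%, at a median G+C content of 60.7%. CACGTG was thus nearer to the share in the RefSeq windows among the most abundant genes, and no motif share was tested.

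Beyond lactate, the fate of pyruvate depends on its entry into mitochondria. PDK2 had 49.3, 45.9 and 48.1 TPM and held 82.0% ± 0.917 of the TPM of the listed pyruvate dehydrogenase kinases, which hold back entry into the tricarboxylic acid cycle. PDK1, the hypoxia-responsive form, had 5.77 TPM and PDK3 4.68 TPM. Of 21 tricarboxylic acid cycle genes 15 were listed, with a median of 83.1 TPM. All stood at 10 TPM or more, against 52.2% of all listed genes. MDH2, the mitochondrial malate dehydrogenase, averaged 673 ± 19.9 TPM and its cytosolic form MDH1 347 ± 3.19 TPM. SDHC averaged 241 TPM, FH 117 TPM and SUCLG2, the lowest, 11.9 TPM.

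Of 45 nuclear respiratory chain genes 35 were listed, all at 10 TPM or more, against 52.2% of all listed genes. They had a median of 268 TPM and carried 1.86% ± 0.0537 of the listed TPM. ATP5J2 and COX6A1 averaged 1041 ± 47.8 and 1039.5 ± 50.2 TPM and ATP5B, the catalytic subunit of ATP synthase, 934 ± 23.6 TPM. UQCRFS1, the Rieske protein of complex III, was lowest at 29 TPM. COX4I1 held 98.3% ± 0.279 of its family over COX4I2, the oxygen-responsive form, at 4.49 TPM. SLC25A6 averaged 562 ± 3.16 TPM and SLC25A5 381 ± 6.02 TPM, over the muscle ADP/ATP carrier SLC25A4 at 28.2 TPM. The outer membrane channels VDAC1 and VDAC2 overlapped at 216 ± 9.37 and 201 ± 5.16 TPM, the only leading pair of 43 families that did.

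Cytosolic ribosomal proteins were the most abundant list. Of 79 genes 54 were listed, all above 100 TPM and 43 at 1000 TPM or more. Of all listed genes 9.79% had at least 100 TPM and 0.819% at least 1000 TPM. They carried 15.3% ± 0.497 of the listed TPM, with a median of 1584 TPM. The lowest, RPS26, RPS9 and RPL22, averaged 349.6, 386 and 456 TPM. Of 39 translation factors 31 were listed, with a median of 262 TPM and 3.84% ± 0.0397 of the listed TPM, down to EIF5B at 77.7 TPM. EEF1A1 exceeded EEF1A2, the form of neurons and muscle, by 46.2 ± 3.52 times, though EEF1A2 still averaged 122 TPM.

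In serine, folate and nucleotide synthesis, 22 of 30 genes were listed, with a median of 103 TPM. At 10 TPM or more stood 20 of them (90.9%), against 52.2% of all listed genes. The mitochondrial folate enzymes MTHFD2 and SHMT2 averaged 369 ± 7.43 and 239 ± 1.62 TPM. IMPDH2, the proliferation-linked guanine nucleotide enzyme, averaged 274 TPM, against 80.2 TPM for IMPDH1, and ATIC, of purine synthesis, 250.1 ± 25.6 TPM. The serine pathway was uneven. PHGDH, its entry enzyme, had 0.741, 0.166 and 0.747 TPM, PSAT1 of the next step a mean of 103 ± 3.10 TPM, and PSPH of the last step 36.9, 36.7 and 35.2 TPM. PHGDH was below 1 TPM in all 3 libraries. DHODH, of pyrimidine synthesis, had 6.5 TPM.

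The genes that the series is built around were described only in their solvent state. Of 31 genes of the NRF2 pathway 20 were listed, with a median of 35.8 TPM. At 10 TPM or more stood 17 (85%), against 52.2% of all listed genes. FTH1 led, the thioredoxin TXN averaged 389 ± 8.39 TPM, the pentose phosphate enzyme TKT 339.8 ± 7.17 TPM and TXNRD1, the thioredoxin reductase, 172 ± 7.64 TPM. NFE2L1, a relative of NRF2, averaged 230.5 ± 15.4 TPM and CUL3, the ligase scaffold that acts with KEAP1, 73.1 TPM. NQO1, the classical quinone reductase target, had 15.6, 16.1 and 15.6 TPM, and SLC7A11, the cystine transporter, 0.495, 0.614 and 0.488 TPM. The small MAF partners MAFF and MAFK had 2.01 and 1.54 TPM. HMOX1, NFE2L2 (NRF2 itself) and its sensor KEAP1 were not analysed here.

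Of 20 glyoxalase and aldehyde-clearing genes 12 were listed, with a median of 66.6 TPM. At 10 TPM or more stood 11 (91.7%), against 52.2% of all listed genes. AKR1B1, an aldose reductase that also reduces methylglyoxal, averaged 332 ± 6.85 TPM, PARK7 (DJ-1) 254 ± 5.84 TPM, ESD, which acts on S-formylglutathione, 133 TPM and ADH5 119 TPM. ALDH1A3 was lowest at 1.19 TPM, and GLO1 and HAGH were not analysed here.

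Of 63 isoenzyme families fixed, 43 had at least 2 listed members and 16 of these were complete in the table. A member was called dominant when it held at least 80% of the listed family's TPM in every library, which 18 families met, 5 of them complete. Leader and second had ranges that did not overlap in 42 of the 43, and of all 84 neighbouring pairs 5 overlapped, 3 of them with both members below 1 TPM. The share of a leader is a share of the listed members only. With 3 libraries an exact two-sided sign-flip test cannot give a p below 0.25, so orders are read from the ranges and no test is given.

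Energy-buffering families had clear leaders. CKB, the brain creatine kinase, had 662, 689 and 703 TPM and held 86.2% ± 0.487 of a complete family. The mitochondrial copies CKMT1B and CKMT1A had 67.9 and 40.8 TPM, and 57.4% and 66.7% of their 50-base windows also occur in other genes, so their split is uncertain. CKM and CKMT2, the muscle forms, had 0.427 and 0.336 TPM. AK1 led the listed adenylate kinases at 103 ± 6.99 TPM.

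Among tubulins, TUBA1B held 75.4% ± 0.271 of the listed alpha tubulin TPM and ran at 3.09 ± 0.0441 times TUBA1A. TUBA8, TUBA1C and TUBA4A had 8.24, 3.02 and 1.04 TPM. TUBB had 2059, 2122 and 2046 TPM, over TUBB4B at 518, the neuronal TUBB3 at 189 and TUBB2A at 84.0 TPM. The ratio of TUBB to TUBB3 was 11.0 ± 0.0784. Of their 50-base windows, 25.6% of TUBA1B, 22.1% of TUBA1A, 33.4% of TUBB3 and 58.7% of TUBB2A occur in other genes as well, so these splits depend on how reads were shared out.

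Several nuclear families were led by forms known from dividing cells. TOP2A, the proliferation-linked topoisomerase, averaged 205 ± 4.54 TPM and TOP2B, the form made in dividing and resting cells alike, 103 ± 6.66 TPM. DNMT1, the maintenance DNA methyltransferase, averaged 113 TPM, over the de novo enzymes DNMT3A at 73.5 and DNMT3B at 17.0 TPM. EZH2, the polycomb methyltransferase, had 92.7, 97.8 and 95.2 TPM and EZH1 19.8, 19.5 and 24.4 TPM. LMNB1 and LMNB2 averaged 232 ± 11.3 and 139.8 ± 4.39 TPM, while LMNA, the lamin of differentiated cells, had 10.8 ± 1.19 TPM.

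Chaperone and antioxidant families differed in how far 1 member led. HSPA8, the constitutive HSP70, averaged 2232 ± 58.4 TPM and held 98.5% ± 0.0948 of the listed HSP70 TPM, over the heat-inducible HSPA1B at 33.8 TPM, a gene with 73.5% of its 50-base windows in other genes. HSP90AA1, the more stress-inducible HSP90, exceeded the constitutive HSP90AB1, at 1819 ± 45.4 TPM, in every library. SOD1, the cytosolic superoxide dismutase, averaged 520.2 ± 11.6 TPM, over the mitochondrial SOD2 at 42.4 TPM. PRDX2 led the listed peroxiredoxins at 455 ± 4.35 TPM, over PRDX6 at 242 and PRDX3 at 190.4 TPM.

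**Figure D5:**
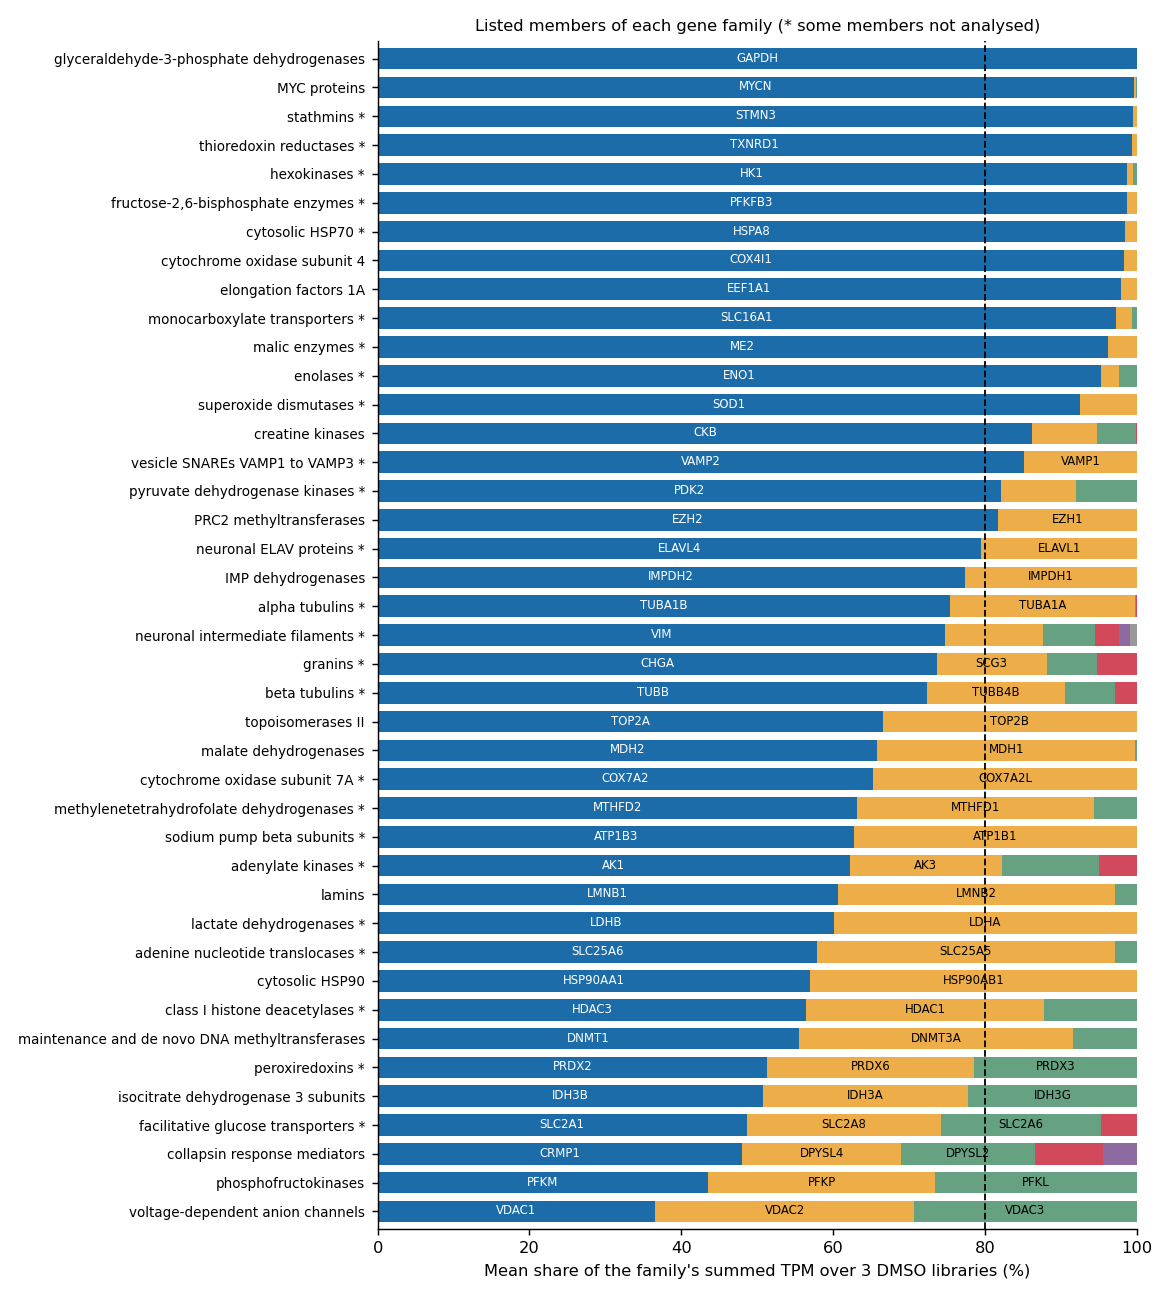
Mean share over the 3 DMSO libraries of each listed member in its family's summed TPM (stacked bars, x, percent), for 41 isoenzyme families with at least 2 listed members. The dashed line is the 80% used to call a member dominant and an asterisk marks families with members not analysed. MYCN, GAPDH, ENO1 and HK1 fill nearly the whole bar, while LDHB, PFKM and VDAC1 hold 60.1%, 43.5% and 36.6%.

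The 3 libraries lay close together. Pairwise Pearson correlations of log2(TPM + 1) across the 11351 genes were 0.996 for each pair, a description across genes that are not independent. The median SD of log2(TPM + 1) was 0.09, and the median coefficient of variation was 3.48% for genes of 100 TPM or more, 5.65% for 10 to 100 TPM, 12.9% for 1 to 10 TPM and 36.8% below 1 TPM. Among genes of at least 10 TPM, replicate 3 was farthest from the median of the libraries in 41.7%, replicate 2 in 29.5% and replicate 1 in 28.8%. Median-ratio scaling factors were 1.01, 1.01 and 0.985 for replicates 1, 2 and 3.

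The steadiest genes of at least 100 TPM were POLDIP2, NUDC and OXA1L. POLDIP2, a polymerase delta partner, had 138 TPM in each library. Of the 10 genes of at least 10 TPM with the widest spread, 7 had most of their 50-base windows in other genes as well. SMIM11A had 22.4, 5.89 and 20.4 TPM while its copy SMIM11B had 13.9, 31.8 and 15.5 TPM, and 93.2% and 90.7% of their windows occur in other genes. GAGE13, one of a cluster of cancer-testis genes, had 18.5, 53.0 and 48.5 TPM with 92.9% of its windows in other genes.

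UBE2F-SCLY, EIF2S2P4 and FAM27B had shared windows of 88.7%, 61.1% and 94.5%. ADAM9, a surface protease, had 17.0, 4.62 and 11.5 TPM, NBR1, an autophagy receptor, 108, 114 and 55.8 TPM, and ZNF358, a zinc finger gene, 7.38, 18.1 and 10.3 TPM. These had 0%, 1.08% and 18.4% of their windows in other genes. Replicate 3 was the low library for NBR1 and replicate 2 for ADAM9.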

How the data were processed

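RNA from IMR32 cells was read from 1 end over 50 bases with the BGISEQ-500 instrument, per the labels' protocols. Per the submitters' processing notes the authors used kallisto. Its version, like the annotation, genome build and strand setting, is not given in the sources used here. Values are TPM by gene symbol in a table that the authors deposited, of which the 3 DMSO columns were used. How the values of a gene's transcripts were combined under a symbol was not examined here. A low value, or a share within a family, may therefore not cover every transcript of the gene. Mean, SD, rank and coefficient of variation were computed from TPM as deposited, with no filter, and spread on log2(TPM + 1). With 1 group there is no comparison and no test.

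Levels were summarised for 24 gene lists (638 genes, 439 listed) and 63 isoenzyme families. The members, lists and families were chosen with earlier results of these data known. Genes were named by a rule: the 25 with the highest mean, up to 6 highest and 3 lowest members of each list, listed members of the families described, the 10 widest and 3 narrowest in spread, and a few by name. The list of Schwann and glial genes is given only as a sum. A few genes outside the rule, among them TRIB2, HAND1, INSM1, TBX2, CXCR4, MNT, CDKN1A, CDKN2A and SLC18A3, were named after their values were seen. Results of some genes that the rule takes are not reported here, though they stay in the counts.

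Shared sequence is the percent of a gene's 50-base windows, on the same strand, found in transcripts of another gene in GENCODE v29. Promoters are the first RefSeq window of each gene, GRCh38.p14. Protein lengths were not analysed here. Python 3.11.15 and pandas 2.3.3 were used, and the steps were tested on simulated data. The alternatives tried were the median, other scalings, minimum levels, pseudocounts, dominance cutoffs and leaving out each library.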

Additional observations from a re-analysis of the deposited data

How the results depend on the processing

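Rescaling the listed genes alone to the full TPM total, in place of the deposited scale, put 1823 genes at 100 TPM or more (1111 as deposited) and 147 at 1000 TPM or more (93 as deposited), and it moved the medians of all 24 lists. Under that rescaling each library's shares and ratios are the same by construction. The median SD of log2(TPM + 1), 0.09 as reported, was 0.12 with a pseudocount of 0.1, 0.10 with 0.5 and 0.0722 among genes of at least 10 TPM. It was between 0.0655 and 0.0779 when each library was left out in turn. An SD of 2 values has a lower median than an SD of 3 at equal spread, so these last values cannot be compared with 0.09. Leaving out the genes under 1 TPM moved 5 leader shares and 8 list medians, among them the mesenchymal list to 25.9 TPM, the noradrenergic to 43.0, the synaptic vesicle list to 26.6 (15.1 without the filter), the blood markers to 2.37 (0.575) and the Schwann and glial list to 2.27 (0.429), while the median of all genes kept was 19.4 TPM. The median over libraries moved 1 list median, and leaving out replicates 1, 2 and 3 moved 3, 0 and 1. Median-ratio scaling moved none. The leading member of a family changed in 0 of the alternatives run. Counts at 1 and 10 TPM, the shares of the top genes and the number of families with a dominant member stayed within 1.5 times or within the spread between libraries in each alternative run. No paired analysis was possible because only the DMSO group is described and no groups are compared. The depth of each library is unknown, so levels below 1 TPM, whose median coefficient of variation was 36.8%, carry little precision.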

Other observations

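Of the 11351 listed symbols 1036 (9.13%) are pseudogenes in GENCODE v29, and they carried 2.57% ± 0.0188 of the listed TPM (SD, n = 3). RPL23AP42 averaged 2053 ± 57.8 TPM, at rank 35, and MTATP6P1, a nuclear copy of a mitochondrial ATP synthase gene, 1489 ± 38.0 TPM, at rank 56. Of their 50-base windows, 88.2% and 46.7% occur in other genes. TMSB4XP6 and EEF1A1P5 averaged 1001 ± 179 and 907 ± 152 TPM, with 84.9% and 89.6% of their windows in other genes. Their parent genes TMSB4X and EEF1A1, at 2877 ± 91.5 and 5637 ± 56.8 TPM, are among the 25 most abundant. The share of such reads that came from the parent genes was not tested. Only 10 listed symbols are long noncoding RNAs, of which NBR2 was the highest at 12.5 ± 3.64 TPM.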
